A study of Mus musculus with 18 samples.

Results

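The core and naive pluripotency transcription factors were described here as 9 genes, Pou5f1, Sox2, Nanog, Sall4, Esrrb, Prdm14, Tfcp2l1, Nr5a2 and Tbx3, taken by symbol from the 53672 gene symbols listed in each count table. All 9 had enough counts to be tested. The RNA-seq libraries came from E14TG2a mouse embryonic stem cells (ESCs) that are Hdac1/2 lox/lox, so that 4-hydroxytamoxifen (OHT) removes the endogenous HDAC1 and HDAC2 deacetylases. In 3 lines a stably integrated transgene supplied Flag-tagged HDAC1, either wild type (HDAC1-WT) or with the substitution E63R (HDAC1–E63R) or Y48E (HDAC1–Y48E). Libraries were made from untreated cells and from cells given 1 µM OHT. This gave 6 groups of 3 libraries, 18 in all. The labels give 5 days of OHT, while the methods give 24 h of OHT and a further 4 days of culture. All cells were kept on gelatine in medium with serum and leukaemia inhibitory factor. Untreated cells of a mutant line hold the endogenous deacetylases as well as the mutant protein. Each construct was represented by 1 line, so construct and line cannot be told apart. The study calls the 3 libraries of a group biological replicates, and does not say whether they came from separate cultures or from separate clones, so p-values measure the spread between these libraries.

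OCT4 (encoded by Pou5f1), SOX2 and NANOG are the transcription factors that hold ESCs in the pluripotent state, and OCT4 and SOX2 bind together at a composite DNA element in many of their targets, including their own genes. SALL4 supports the expression of Pou5f1. Around this core stands a set of naive factors that mark the state of the preimplantation epiblast and fall as cells leave it: the orphan nuclear receptors ESRRB and NR5A2, the PR-domain protein PRDM14, the grainyhead-like factor TFCP2L1 and the T-box factor TBX3. HDAC1 and HDAC2 act within several corepressor complexes. As the study describes its constructs, the Y48E protein keeps the SIN3 complex alone and the E63R protein loses NuRD and MiDAC and binds less CoREST.

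Because OCT4 and SOX2 act on the genes described here, promoters were searched for the octamer core TTTGCAT, bound by POU factors, for the SOX motif ACAAT and for the motif AAGGTCA of orphan nuclear receptors, on both strands and over the 250 bases before the start. RefSeq promoters (GRCm38.p6) were matched for 6 of the 9 members, Pou5f1, Sox2, Nanog, Esrrb, Nr5a2 and Tfcp2l1, and not for Sall4, Prdm14 and Tbx3. Where RefSeq lists more than 1, the most upstream is described, and 3 of the 6 held a match. These 3 are shown for that reason, and capitals mark the match. Over 27025 promoters of the same length the octamer core was in 4.1%, the SOX motif in 28.3% and the nuclear receptor motif in 4.1%. The promoters of Nanog (chr6:122707239-122707488, plus strand), Sox2 (chr3:34649745-34649994, plus strand) and Esrrb (chr12:86360867-86361116, plus strand) read as follows.
Nanog: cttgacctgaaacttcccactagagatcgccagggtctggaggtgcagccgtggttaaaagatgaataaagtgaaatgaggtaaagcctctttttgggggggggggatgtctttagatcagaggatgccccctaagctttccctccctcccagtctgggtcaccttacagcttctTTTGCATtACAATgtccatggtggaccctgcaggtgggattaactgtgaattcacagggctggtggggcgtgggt
Sox2: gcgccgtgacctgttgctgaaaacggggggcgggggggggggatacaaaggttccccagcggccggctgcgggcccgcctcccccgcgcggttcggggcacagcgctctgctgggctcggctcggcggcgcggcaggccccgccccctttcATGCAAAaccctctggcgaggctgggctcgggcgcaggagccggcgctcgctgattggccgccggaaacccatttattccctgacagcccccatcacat
Esrrb: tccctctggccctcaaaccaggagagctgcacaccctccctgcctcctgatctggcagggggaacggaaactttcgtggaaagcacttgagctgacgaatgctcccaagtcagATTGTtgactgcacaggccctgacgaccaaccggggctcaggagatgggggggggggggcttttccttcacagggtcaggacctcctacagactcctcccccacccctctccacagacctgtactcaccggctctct
In the Nanog promoter the octamer core began 75 bases before the start and the SOX motif 67 bases before it, with 1 base between them on the same strand. From the start of a second RefSeq promoter of Nanog the same pair lay 151 and 143 bases before it. The Sox2 promoter held the octamer core on the opposite strand, 99 bases before the start, and the Esrrb promoter a SOX motif on the opposite strand, 137 bases before the start. The nuclear receptor motif was in none of the 6, and a second RefSeq promoter of Pou5f1, inside the gene, held a SOX motif 158 bases before its start. In the most upstream promoters CG dinucleotides numbered 27 in the Sox2 promoter and 16 in the Tfcp2l1 promoter, against 8 for Pou5f1, 6 for Esrrb, 3 for Nanog and 2 for Nr5a2, with a median of 6 over all promoters. A match is a description of the letters and not a bound site.

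Each library held between 9019615 and 11454638 counts on genes, and 3 counts, the limit that a count of 0 allows, corresponded to between 0.262 and 0.333 CPM. CPM are counts scaled to the same total in each library, here with TMM factors, which correct that total for differences in composition. Such limits take account of counting error alone, as the reads carry no molecular identifiers and several may stem from 1 molecule. One library, replicate 3 of the untreated HDAC1–E63R cells, stood apart from its group. Of 12518 genes with a mean of at least 5 CPM, 1811 (14.5%) were more than 2-fold off the mean of its 2 partners, against 0.184% to 1.24% in the other libraries. Its deviation ran with transcript length, with a median of 0.53 on the log2 scale in the bin of genes with the shortest exons, of 4 equal bins, and -0.52 in the bin with the longest, while the other libraries lay between -0.08 and 0.08 in both. Tests of the members that rest on untreated HDAC1–E63R cells are therefore given with and without it, while the rankings of patterns and the orders of groups include it. The count of Hdac1 does not check the deletion, since a gene-level count does not separate endogenous from rescue transcripts. Hdac2 is not supplied by the transgene. Its log2 fold change after OHT was -0.66 (adjusted p = 0.0125) with HDAC1-WT and -0.07 (adjusted p = 0.649) with HDAC1–Y48E. With HDAC1–E63R it was -0.21 (adjusted p = 0.194), or -0.07 (adjusted p = 0.597) without replicate 3. What these values say of the deletion was not tested. Hdac1 stood at 201 to 210 CPM in untreated HDAC1-WT cells, at 94.9 to 110 in untreated HDAC1–E63R cells and at 97.9 to 104 in untreated HDAC1–Y48E cells.

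A member passed where the Benjamini-Hochberg adjusted p of edgeR's quasi-likelihood test was under 0.01, and it was a DEG where the log2 fold change was also beyond 1 in either direction. After OHT in the HDAC1–Y48E line, 8 of the 9 members fell and 7 were DEGs. Over the 18791 genes tested, 14.7% fell and 5.84% were DEGs with lower levels, while 16.2% rose. The median log2 fold change was -1.52 over the members and 0.05 over all genes. All 9 members, Sall4 included, had their 3 OHT-treated HDAC1–Y48E libraries below the 3 untreated ones, a pattern held by 27.5% of all genes. They also had these 3 libraries below the other 15, which held for 9.52% of all genes, and with library totals alone in place of TMM factors it held for 6 of the 9. In the HDAC1–E63R line 3 of the 9 members fell, Pou5f1, Esrrb and Prdm14, and 0 were DEGs, against 6.82% and 1.18% of all genes, and 7.49% of all genes rose. Without untreated replicate 3 of that line 5 of the 9 fell, with Tfcp2l1 and Nr5a2 added, against 9.63% of all genes. In a fit of the 6 libraries of the line alone, replicate 3 included, 0 of the 9 fell. The share of all genes in that fit was not recorded, so this count cannot be set against it. In the HDAC1-WT line 0 of 9 passed in either direction, where 0.0213% of all genes fell and 0.0373% rose. In a bulk library, fewer cells that express a gene and less RNA per cell cannot be told apart.

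**Figure D1:**
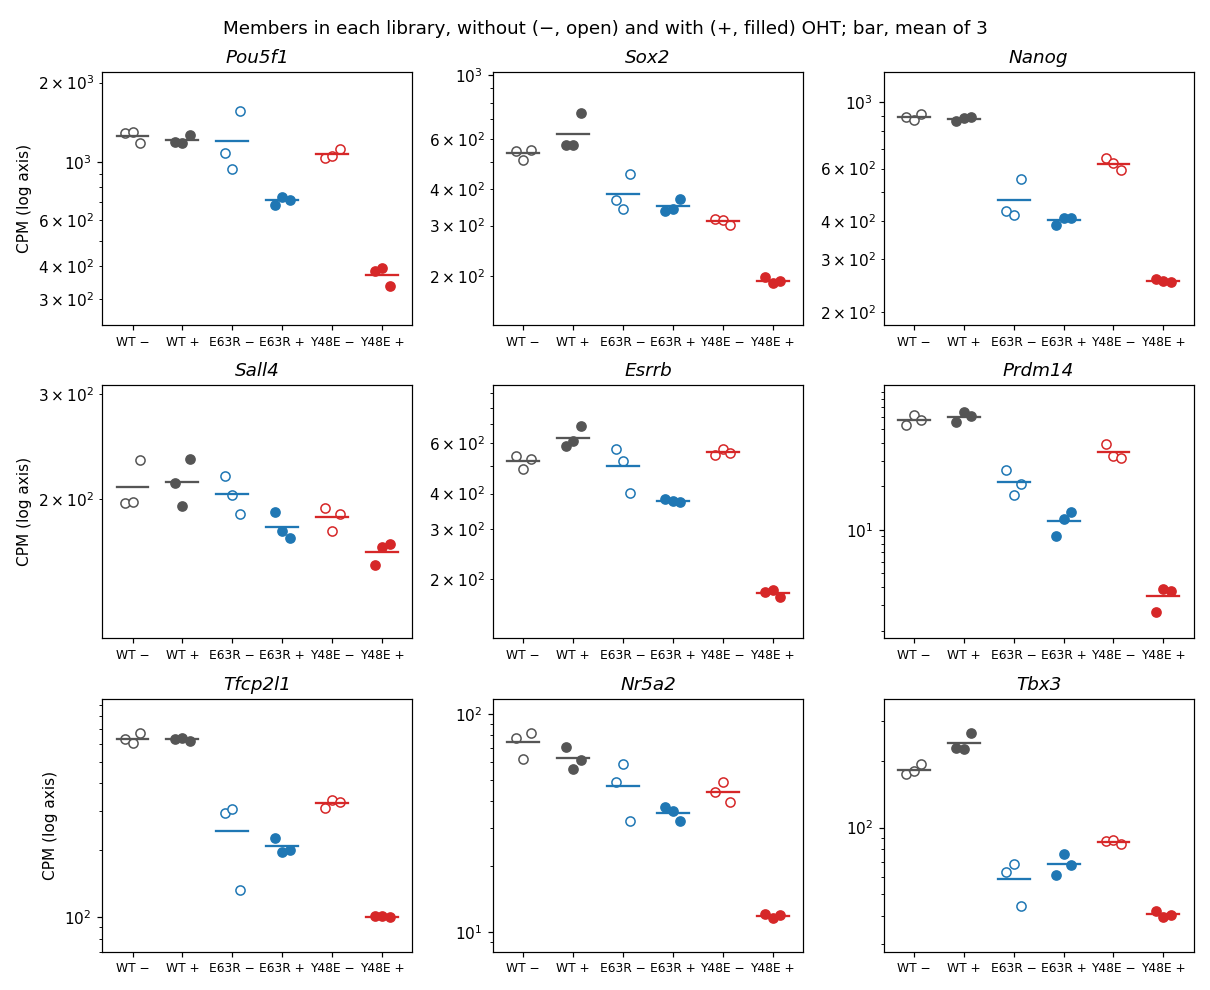
CPM (TMM-scaled, log axis) of each of the 9 members in the 18 libraries, by rescue line without OHT (open) and with OHT (filled), with the mean of 3 libraries as a bar. The 3 OHT-treated HDAC1–Y48E libraries are the lowest of all 18 for each of the 9 members. Untreated HDAC1–E63R replicate 3 (the rightmost open point of its group) lies outside the range of its partners for every member except Prdm14.

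Pou5f1, which encodes OCT4, lies at chr17:35506018-35510772 on the plus strand (mm10), and 14.1% of its exonic bases are overlapped by Gm19553 on the opposite strand. Its 3 untreated HDAC1–Y48E libraries held 1036, 1049 and 1114 CPM, and the 3 with OHT held 384, 395 and 336 CPM. The groups were far apart, and Pou5f1 fell by 1.52 on the log2 scale (SE 0.13, adjusted p = 6.15e-09), to 34.9% of the untreated level. In the HDAC1–E63R line Pou5f1 stood at 1083, 934 and 1565 CPM without OHT and at 685, 735 and 717 CPM with it. The highest of these values is the library that stood apart. The log2 fold change was -0.75 (SE 0.13, adjusted p = 2.30e-04) with it and -0.50 (SE 0.06, adjusted p = 2.15e-08) without it, and in both cases the treated libraries lay below the untreated ones. A fit of the 6 libraries of the line alone did not pass (adjusted p = 0.0458). HDAC1-WT cells held 1291, 1296 and 1178 CPM of Pou5f1 untreated and 1187, 1174 and 1259 CPM with OHT, ranges that overlap, with a log2 fold change of -0.06 (95% interval -0.32 to 0.21).

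Sox2, the partner of OCT4 at the composite element, is a gene at chr3:34650405-34652461 (plus strand) within the noncoding gene Sox2ot, with no shared exonic bases. It was the 1 member that fell after OHT in the HDAC1–Y48E line without reaching a 2-fold change. Its levels were 315, 313 and 302 CPM untreated and 199, 189 and 192 CPM with OHT, which is 62.3% of the untreated level (log2 fold change -0.68, SE 0.11, adjusted p = 3.44e-05). In HDAC1–E63R cells Sox2 gave 367, 341 and 451 CPM untreated and 337, 341 and 370 CPM treated. These ranges overlap, and the log2 fold change of -0.14 (adjusted p = 0.365) became -0.02 (adjusted p = 0.881) without the library that stood apart. Sox2 in HDAC1-WT cells was at 545, 507 and 548 CPM untreated and at 570, 570 and 735 CPM with OHT. All 3 treated libraries were above the untreated ones, but the log2 fold change of 0.23 (SE 0.11) had an adjusted p of 0.493.

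Nanog, the homeodomain factor of the core, lies at chr6:122707489-122714633 on the plus strand. Stretches of its transcript are 95% to 98% identical to stretches of 56 other genes, Hdac1 among them, and to its pseudogene Nanog-ps1, which had 1 count in all libraries together. Reads that fall wholly inside such a stretch could have been left out as not uniquely aligned, or counted with another gene. Nanog fell from 649, 627 and 592 CPM to 257, 254 and 251 CPM after OHT with HDAC1–Y48E. Its log2 fold change was -1.29 (SE 0.10, adjusted p = 7.59e-10), or 40.8% of the untreated level. The HDAC1–E63R libraries held 435, 421 and 555 CPM untreated and 389, 410 and 412 CPM treated. Each treated library was below each untreated one, and yet neither the log2 fold change of -0.22 (adjusted p = 0.0977) nor that of -0.09 without replicate 3 (adjusted p = 0.293) passed. HDAC1-WT cells held 893, 870 and 909 CPM and, with OHT, 866, 885 and 889 CPM, for a log2 fold change of -0.02 (95% interval -0.22 to 0.18).

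Sall4, a zinc finger gene at chr2:168748332-168767943 on the minus strand with 9.5% of its exonic bases overlapped by Gm14261 on the opposite strand, had the smallest change of the 9 with HDAC1–Y48E. In that line it stood at 193, 177 and 189 CPM untreated and at 155, 166 and 168 CPM with OHT. The libraries did not overlap, but the log2 fold change of -0.20 (95% interval -0.40 to 0.01) had an adjusted p of 0.118. It passed in a fit of these 6 libraries alone (adjusted p = 0.00655), and with library totals alone its log2 fold change was 0.01. With HDAC1–E63R it held 219, 203 and 189 CPM untreated and 190, 177 and 172 CPM treated, a log2 fold change of -0.18 (adjusted p = 0.201), or -0.23 (adjusted p = 0.028) without replicate 3. With HDAC1-WT the values were 197, 198 and 233 CPM untreated and 213, 195 and 234 CPM treated, which is nearly the same range.

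Esrrb, the nuclear receptor gene at chr12:86361117-86521628 (plus strand), is bound by the core factors and is required by ESCs for self-renewal in some media. In the HDAC1–Y48E line its libraries held 548, 573 and 554 CPM untreated and 180, 184 and 173 CPM with OHT. Esrrb fell by 1.64 on the log2 scale (SE 0.11, adjusted p = 1.30e-10) to 32.1% of its untreated level, with little spread in either group. HDAC1–E63R cells held 575, 519 and 401 CPM untreated and 384, 377 and 373 CPM treated. The lowest untreated value is the library that stood apart, and the log2 fold change was -0.40 (SE 0.11, adjusted p = 0.00853) with it and -0.54 (SE 0.07, adjusted p = 1.15e-08) without it. With library totals alone the value with all libraries was -0.21 (adjusted p = 0.233), and the call was also lost with a replicate block, with a fit of the 6 libraries alone, and when any of the other 5 libraries of the line was left out. In HDAC1-WT cells Esrrb was at 542, 488 and 528 CPM untreated and at 586, 612 and 689 CPM with OHT, with all treated values higher, a log2 fold change of 0.28 (SE 0.11) and an adjusted p of 0.354.

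Nr5a2 encodes the other nuclear receptor, LRH-1, which can replace OCT4 in reprogramming, and lies at chr1:136842571-136960448 on the minus strand. It was among the less abundant members, at 43.8, 48.8 and 39.4 CPM in untreated HDAC1–Y48E cells. With OHT it was at 12.1, 11.6 and 11.9 CPM, well below, and the log2 fold change was -1.89 (SE 0.18, adjusted p = 2.65e-08). HDAC1–E63R cells had 48.8, 58.6 and 32.1 CPM untreated and 37.4, 36.0 and 32.1 CPM treated. The overlap rests on replicate 3 of the untreated cells. With it the log2 fold change of -0.40 did not pass (adjusted p = 0.081), and without it Nr5a2 fell by 0.61 (SE 0.13, adjusted p = 3.17e-04). HDAC1-WT cells had 77.8, 62.4 and 81.8 CPM untreated and 70.4, 56.0 and 61.6 CPM treated, overlapping ranges with a log2 fold change of -0.24 (adjusted p = 0.698).

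Prdm14, at chr1:13113457-13127163 on the minus strand, encodes a PR-domain protein that represses the de novo DNA methyltransferase genes and FGF receptor signalling in ESCs. It had the largest fold change of the 9 members in both mutant lines after OHT. With HDAC1–Y48E it went from 39.0, 32.3 and 31.3 CPM to 2.71, 3.90 and 3.78 CPM. These treated values rest on 27, 43 and 42 counts, above the limit of 3. The log2 fold change was -3.30 (SE 0.20, adjusted p = 1.77e-11), so that 10.2% of the untreated level was left. With HDAC1–E63R it went from 25.8, 17.4 and 20.8 CPM to 9.11, 11.9 and 13.3 CPM, again without overlap. The log2 fold change was -0.91 (SE 0.17, adjusted p = 5.74e-04) with all libraries and -0.93 (SE 0.17, adjusted p = 4.55e-05) without replicate 3, and the adjusted p was 0.0368 in a fit of the 6 libraries alone. In HDAC1-WT cells it held 52.9, 62.4 and 57.7 CPM untreated and 55.5, 65.2 and 60.9 CPM treated, with a log2 fold change of 0.07 (95% interval -0.26 to 0.39).

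Tfcp2l1, at chr1:118627945-118685168 on the plus strand, encodes a target of LIF and STAT3 signalling. In HDAC1–Y48E cells it was measured at 311, 338 and 329 CPM untreated and at 101, 101 and 100 CPM with OHT. The treated libraries were almost equal, and Tfcp2l1 fell by 1.70 on the log2 scale (SE 0.19, adjusted p = 2.06e-07). In HDAC1–E63R cells it was at 295, 308 and 132 CPM untreated and at 227, 197 and 201 CPM treated. The value of 132 CPM, again replicate 3, is below all treated libraries. With it the log2 fold change was -0.23 (SE 0.18, adjusted p = 0.375), and without it Tfcp2l1 fell by 0.53 (SE 0.07, adjusted p = 2.00e-08). HDAC1-WT cells stood at 631, 605 and 671 CPM untreated and at 634, 640 and 622 CPM with OHT, for a log2 fold change of -0.01 (95% interval -0.38 to 0.36).

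Tbx3, at chr5:119670669-119684724 on the plus strand with 1.7% of its exonic bases overlapped by Tbx3os1 on the opposite strand, encodes a T-box factor that helps keep Nanog on. It fell after OHT with HDAC1–Y48E, from 86.9, 88.0 and 84.2 CPM to 42.2, 39.5 and 40.5 CPM, a log2 fold change of -1.08 (SE 0.13, adjusted p = 6.98e-07). With HDAC1–E63R it was the 1 member whose estimate was above 0 with TMM factors. Its libraries held 63.3, 68.3 and 44.5 CPM untreated and 61.5, 76.4 and 67.7 CPM treated, and the log2 fold change was 0.22 (adjusted p = 0.22), or 0.06 (adjusted p = 0.715) without replicate 3. In HDAC1-WT cells Tbx3 was at 174, 180 and 193 CPM untreated and at 229, 226 and 265 CPM with OHT. All treated values were higher, with a log2 fold change of 0.40 (SE 0.12, adjusted p = 0.198), which passed in a fit of the 6 HDAC1-WT libraries alone (adjusted p = 0.00271).

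**Figure D2:**
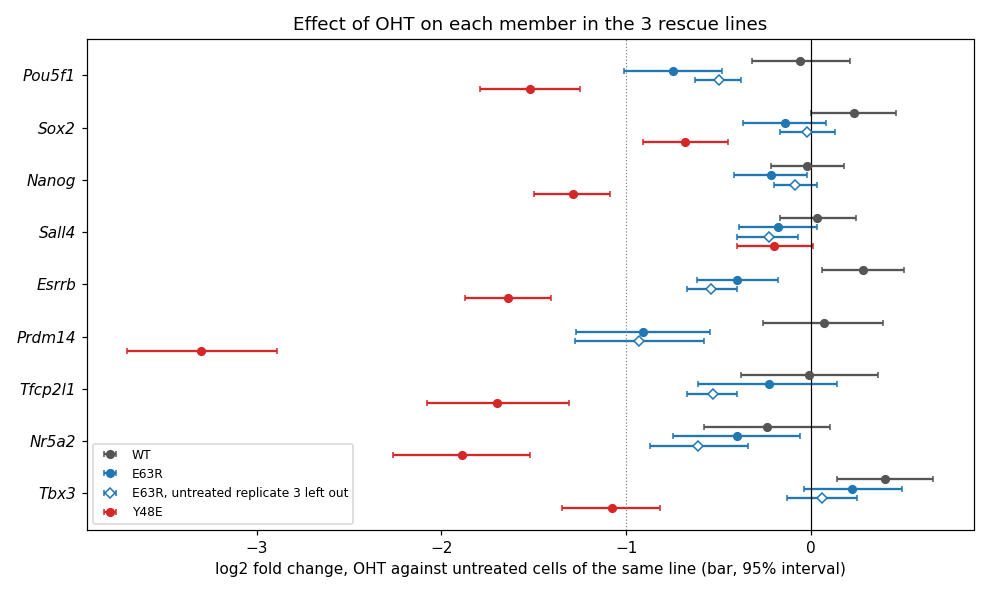
Log2 fold change of each member after OHT, relative to untreated cells of the same line, with 95% intervals; diamonds leave out untreated HDAC1–E63R replicate 3, and the dotted line marks a 2-fold decrease. The HDAC1–Y48E values run from -3.30 for Prdm14 to -0.20 for Sall4, and the HDAC1-WT values stay between -0.24 and 0.40.

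Whether OHT acted on the members to a different degree in the 3 lines was tested as the difference of the OHT effects. Between HDAC1–Y48E and HDAC1-WT the difference passed for 8 of 9 members, all towards lower levels with HDAC1–Y48E, against 6.77% of all genes. It was largest for Prdm14 (log2 difference -3.36, SE 0.25, adjusted p = 3.10e-09) and Esrrb (-1.92, SE 0.15, adjusted p = 8.00e-09), and did not pass for Sall4 (-0.23, 95% interval -0.52 to 0.06). Between HDAC1–E63R and HDAC1-WT it passed for 1 of 9 members, Esrrb (-0.68, SE 0.15, adjusted p = 0.00833), against 1.01% of all genes. The call for Esrrb was lost when any library compared other than untreated HDAC1–E63R replicate 3 was left out. Without that replicate 4 of 9 passed, Pou5f1 (-0.45), Esrrb (-0.81), Prdm14 (-1.0) and Tfcp2l1 (-0.53), against 3.63% of all genes. These comparisons share the HDAC1-WT libraries.

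The direct comparison of both mutant lines passed for 6 of 9 members, Nanog, Esrrb, Prdm14, Tfcp2l1, Nr5a2 and Tbx3, against 1.53% of all genes, and in each the OHT effect was more negative with HDAC1–Y48E. Of these 6, Esrrb and Prdm14 had also passed as lower with HDAC1–E63R over all libraries. The log2 differences of these 6 ran from -1.07 for Nanog (SE 0.14, adjusted p = 4.12e-05) to -2.39 for Prdm14 (SE 0.26, adjusted p = 7.44e-06). Pou5f1 (-0.78, adjusted p = 0.0136) and Sox2 (-0.54, adjusted p = 0.046) did not pass. Without replicate 3 of the untreated HDAC1–E63R cells 8 of 9 passed, against 5.31% of all genes, with Pou5f1 at -1.02 (adjusted p = 2.87e-12) and Sox2 at -0.67 (adjusted p = 6.80e-06). Sall4 did not pass in either fit, with -0.02 (95% interval -0.31 to 0.28) over all libraries.

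Members already differed between the lines before OHT. In untreated HDAC1–E63R cells 6 of 9 members were lower than in untreated HDAC1-WT cells, against 7.83% of all genes, and in untreated HDAC1–Y48E cells 6 of 9 were lower, against 5.74% of all genes. In both lines these were Sox2, Nanog, Prdm14, Tfcp2l1, Nr5a2 and Tbx3, and the comparisons share the untreated HDAC1-WT libraries. Tbx3 had the lowest value of the 9 in each line, at 32.3% of HDAC1-WT in untreated HDAC1–E63R cells (log2 difference -1.63, SE 0.13, adjusted p = 5.29e-09) and at 47.4% in untreated HDAC1–Y48E cells (-1.08, SE 0.13, adjusted p = 1.9e-06). Prdm14 stood at 37.1% of HDAC1-WT in HDAC1–E63R cells (-1.43, SE 0.16, adjusted p = 1.13e-06) and at 59.4% in HDAC1–Y48E cells (-0.75, SE 0.16, adjusted p = 0.00152). Nanog was at 52.8% in HDAC1–E63R cells (-0.92, SE 0.10, adjusted p = 3.07e-07) and at 69.9% in HDAC1–Y48E cells (-0.52, SE 0.10, adjusted p = 4.03e-04). Tfcp2l1 was at 38.6% (-1.37, SE 0.18, adjusted p = 7.25e-06) and 51.3% (-0.96, SE 0.18, adjusted p = 4.68e-04), Nr5a2 at 62.9% (-0.67, adjusted p = 0.00392) and 59.5% (-0.75, adjusted p = 0.00204), and Sox2 at 72.4% (-0.47, adjusted p = 0.00284) and 58.1% (-0.78, adjusted p = 1.98e-05), in the same order of lines. Without untreated HDAC1–E63R replicate 3 the same 6 members passed in that line, with Tbx3 at 36.3% of HDAC1-WT (log2 difference -1.46), Prdm14 at 37.8% (-1.40), Tfcp2l1 at 47.6% (-1.07), Nanog at 48.2% (-1.05), Sox2 at 66.6% (-0.59) and Nr5a2 at 72.8% (-0.46, adjusted p = 0.00514). In a fit of the untreated HDAC1–E63R and HDAC1-WT libraries alone, the calls for Tfcp2l1 (adjusted p = 0.0147), Sox2 (0.0824) and Nr5a2 (0.0836) were lost. With HDAC1–E63R the call for Sox2 was lost without HDAC1-WT replicate 1 or 3 or HDAC1–E63R replicate 1 or 2 (adjusted p from 0.0126 to 0.0179), and that for Nr5a2 without HDAC1-WT replicate 1 or 3 (0.0194 and 0.0279). With HDAC1–Y48E the call for Prdm14 was lost without HDAC1-WT replicate 2 or HDAC1–Y48E replicate 2 or 3 (adjusted p from 0.0112 to 0.0128), and that for Nr5a2 without replicate 1 or 3 of either line (0.0108 to 0.0173).

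Esrrb, Pou5f1 and Sall4 were the members that did not pass in either untreated comparison. Esrrb differed from HDAC1-WT by -0.06 (95% interval -0.28 to 0.16) with HDAC1–E63R and by 0.10 (95% interval -0.12 to 0.32) with HDAC1–Y48E. Pou5f1 differed by -0.07 (adjusted p = 0.723) with HDAC1–E63R, and by -0.31 (adjusted p = 1.64e-04) without replicate 3, which made 7 of 9 members lower, against 9.59% of all genes. With HDAC1–Y48E the value for Pou5f1 was -0.24 (adjusted p = 0.216). Between the untreated mutant lines no member passed, with 0 of 9 lower in HDAC1–Y48E cells and 0 higher, against 1.00% of all genes lower. Without replicate 3 of HDAC1–E63R, 3 of 9 were higher in HDAC1–Y48E cells, Nanog (0.54, adjusted p = 2.51e-09), Prdm14 (0.65, adjusted p = 0.00733) and Tbx3 (0.39, adjusted p = 0.00446), against 2.33% of all genes. Hdac1 itself was lower in both untreated mutant lines, by a log2 difference of -0.96 (SE 0.09) with HDAC1–E63R and -1.02 (SE 0.09) with HDAC1–Y48E, and its part in the differences between lines was not tested.

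After OHT more members passed in each comparison between lines. Such counts do not test whether a difference widened, for which the differences of OHT effects are given above. Compared with OHT-treated HDAC1-WT cells, 8 of 9 members were lower in OHT-treated HDAC1–E63R cells (8.79% of all genes) and 9 of 9 in OHT-treated HDAC1–Y48E cells (15.2% of all genes). The 9 values with HDAC1–Y48E ran from 5.76% of the HDAC1-WT level for Prdm14 (log2 difference -4.12, SE 0.20) to 76.1% for Sall4 (-0.39, SE 0.10, adjusted p = 0.00266). The call for Sall4 was lost with library totals alone, and without HDAC1-WT OHT replicate 3 or HDAC1–Y48E OHT replicate 1. Pou5f1 was at 30.8%, Sox2 at 30.9%, Nanog at 28.9% and Esrrb at 28.5%, although Sox2 and Nanog were lower in the untreated cells and Pou5f1 and Esrrb had not passed there. With HDAC1–E63R the values ran from 18.9% for Prdm14 to 84.1% for Sall4, which did not pass (adjusted p = 0.0622). Between OHT-treated mutant lines 8 of 9 members were lower with HDAC1–Y48E, against 6.11% of all genes, with log2 differences from -1.71 for Prdm14 (SE 0.20, adjusted p = 2.27e-06) to -0.67 for Nanog (SE 0.10, adjusted p = 3.22e-05), and Sall4 was at -0.14 (adjusted p = 0.357).

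**Figure D3:**
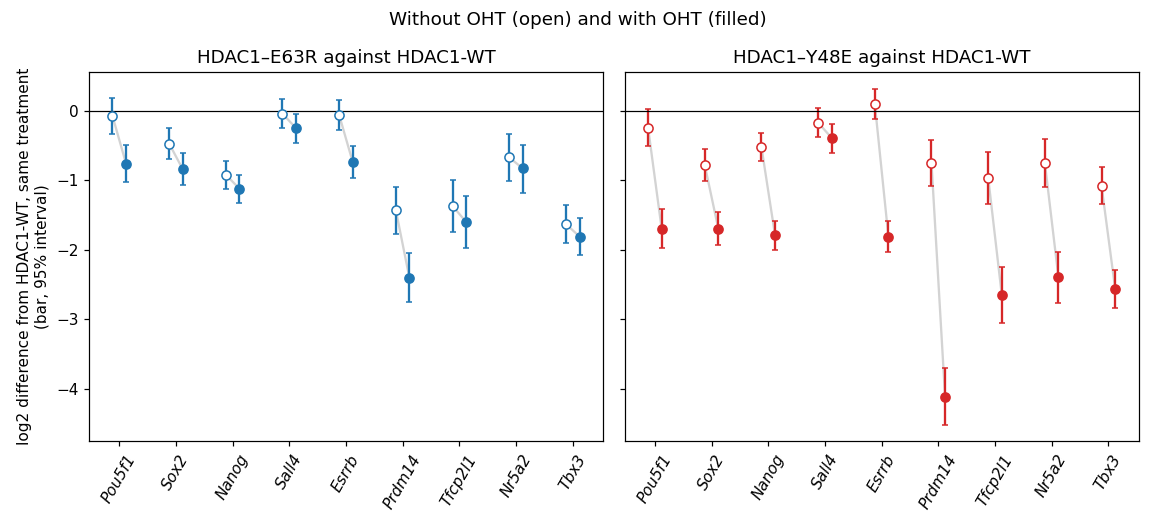
Log2 difference of each member between HDAC1–E63R (left) or HDAC1–Y48E (right) and HDAC1-WT cells of the same treatment, without OHT (open) and with OHT (filled), with 95% intervals over all libraries, untreated HDAC1–E63R replicate 3 included. Esrrb starts at -0.06 and 0.10 without OHT and reaches -0.74 and -1.81 with it, whereas Tbx3 starts at -1.63 and -1.08.

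The order of the 6 groups was much the same for each member at its lower end. OHT-treated HDAC1–Y48E cells were the lowest group for all 9, and OHT-treated HDAC1–E63R cells the next lowest for 7, the exceptions being Sox2, where untreated HDAC1–Y48E cells came next, and Tbx3, where untreated HDAC1–E63R cells did. At the upper end, untreated and OHT-treated HDAC1-WT libraries overlapped for Pou5f1, Nanog, Sall4, Prdm14, Tfcp2l1 and Nr5a2. Untreated HDAC1–E63R and HDAC1–Y48E libraries also overlapped for Pou5f1, Sall4, Esrrb and Nr5a2. For Sall4 each group overlapped the next one in order, except for OHT-treated HDAC1–Y48E cells. Shares of all genes with these orders and overlaps were not computed. The 3 OHT-treated HDAC1–Y48E libraries lay below the other 15 for 9.52% of all genes.

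The members were compared with each other in CPM per kb of exon, a level per length. In untreated HDAC1-WT cells Pou5f1 was the highest at 558 ± 29.5 CPM per kb (SD, n = 3), followed by Nanog at 397 ± 8.57, Sox2 at 259 ± 11 and Esrrb at 85.9 ± 4.58. Tfcp2l1 stood at 67.3 ± 3.55 CPM per kb, Sall4 at 37.8 ± 3.64, Tbx3 at 27.5 ± 1.48, Prdm14 at 22.5 ± 1.85 and Nr5a2 at 12.5 ± 1.73, and no neighbours in this order overlapped. The 4 highest levels kept this order in all 6 groups. Nanog and Sox2 overlapped in OHT-treated HDAC1–E63R cells (180 ± 5.71 and 170 ± 8.82 CPM per kb). Without OHT they stood at 210 ± 33.0 and 188 ± 28.0 CPM per kb and overlapped only through replicate 3, without which Nanog was between 188 and 194 and Sox2 between 166 and 178 CPM per kb. In OHT-treated HDAC1–Y48E cells Pou5f1 was at 165 ± 13.8 CPM per kb, Nanog at 113 ± 1.44, Sox2 at 93.9 ± 2.43 and Esrrb at 29.6 ± 0.917. Sall4 (29.4 ± 1.28) then overlapped with Esrrb, and Prdm14 was last at 1.35 ± 0.255 CPM per kb, below Nr5a2 at 2.01 ± 0.0456.

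For each of the 7 members that were DEGs, genes with the most similar pattern were ranked by the root mean square difference of the 6 centred group means of log2 CPM, over 12636 genes. Esrrb was the member closest to Pou5f1 (difference 0.15), with 43 other genes closer. Tfcp2l1 was the member closest to Tbx3 (0.26), with 14 genes closer, and Nanog and Tfcp2l1 differed by 0.30. The nearest gene to Pou5f1 was Gm19553 (0.04), which overlaps it on the opposite strand. No strand setting was given in the sources used here. How reads in the shared bases, 14.1% of the exonic bases of Pou5f1, were assigned to Pou5f1 or Gm19553 is therefore not known. The next were Mindy1 (0.07) and Sirt3 (0.08). Gabrp (0.06), Pecam1 (0.10), an adhesion molecule on ESCs, and BC037039 (0.10) came first for Nanog, and Hk1, Ubald2 and Gm7367 (0.11 each) for Esrrb. Prdm14 had no gene as close, with Alpk3 at 0.20, Fgf15 at 0.29 and Gm26793 at 0.33. Among the nearest to Tfcp2l1 were Serpinb6c (0.14) and Lims2 (0.18). The nearest were for Nr5a2 Rfx2 (0.13), Wdr35 (0.15) and Dmtn (0.16), and for Tbx3 Zic2, Gm48840 and Jam2 (0.17 each).

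The nearest tested protein-coding genes on both sides of the members, 18 in all, had a median log2 fold change of -0.11 after OHT in the HDAC1–Y48E line. Of these, 5 fell and 4 rose, against 14.7% and 16.2% of all genes. Next to Tfcp2l1, which fell, lies Gli2 at a distance of 149 kb, a transcription factor of hedgehog signalling, which fell by 2.61 (SE 0.23, adjusted p = 5.66e-09), while Clasp1 on the other side was at 0.09 (adjusted p = 0.688). Nanog lies between Dppa3, at 77.2 kb, which rose by 1.89 on the log2 scale (SE 0.23, adjusted p = 8.16e-07), and the glucose transporter gene Slc2a3, at 13.2 kb, which fell by 0.98 (SE 0.10, adjusted p = 5.38e-08). Prdm14 lies between Slco5a1, which rose by 2.21 (SE 0.45, adjusted p = 3.99e-04), and Ncoa2 at -0.19 (adjusted p = 0.569). Next to Pou5f1, H2-Q10 rose by 1.74 (SE 0.32, adjusted p = 1.61e-04) and Tcf19, at 1.96 kb, was at 0.58 (adjusted p = 0.138).

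Among 18 other regulators of the naive network, 8 fell and 1 rose after OHT with HDAC1–Y48E, against 14.7% and 16.2% of all genes. Their median log2 fold change was -0.50. Klf2, a Krüppel-like factor of the naive network, fell by 2.47 (SE 0.17, adjusted p = 1.81e-10), Tcl1, a cofactor of AKT, by 2.49 (SE 0.18, adjusted p = 4.82e-10) and Nr0b1 (DAX1), an orphan nuclear receptor, by 1.94 (SE 0.20, adjusted p = 7.30e-08), while Dppa3 was the gene that rose. In the HDAC1–E63R line 3 of the 18 fell and 3 rose, against 6.82% and 7.49% of all genes. Without replicate 3 of the untreated cells 5 fell and 3 rose, against 9.63% and 8.85%. In the HDAC1-WT line 0 of 18 passed.

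Of 6 textbook targets of OCT4 and SOX2, 5 fell and 1, Fbxo15 (0.67, adjusted p = 1.15e-04), rose after OHT with HDAC1–Y48E, with a median of -0.91. Over all genes 14.7% fell and 16.2% rose. Fgf4, whose enhancer is the classical site of joint OCT4 and SOX2 binding, fell by 3.06 (SE 0.09, adjusted p = 9.78e-16), Lefty1 by 1.81 (SE 0.24, adjusted p = 2.48e-06) and Utf1 by 1.07 (SE 0.14, adjusted p = 3.31e-06). With HDAC1–E63R 3 of the 6 fell, against 6.82% of all genes. Fgf4 was at -1.26 (adjusted p = 2.51e-09) with all libraries and at -1.23 without replicate 3. Without that replicate 2 of the 6 also rose, against 8.85% of all genes.

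Of 6 textbook genes repressed by PRDM14, 4 rose and 0 fell in each mutant line after OHT, with medians of 1.14 for HDAC1–Y48E and 0.69 for HDAC1–E63R. Over all genes 16.2% rose with HDAC1–Y48E and 7.49% with HDAC1–E63R. With HDAC1–Y48E the de novo DNA methyltransferase gene Dnmt3a rose by 1.81 on the log2 scale (SE 0.14, adjusted p = 1.14e-09), its cofactor gene Dnmt3l by 1.24 (SE 0.11, adjusted p = 1.25e-08), Dnmt3b by 1.03 (SE 0.16, adjusted p = 2.76e-05) and the receptor gene Fgfr2 by 1.59 (SE 0.22, adjusted p = 4.98e-06). Fgfr1 (0.04) and Ehmt1 (0.12) did not pass. In untreated cells 4 of the 6 were higher with HDAC1–E63R than with HDAC1-WT, against 9.04% of all genes. With HDAC1–Y48E 3 were higher and 1 lower, against 6.42% and 5.74% of all genes. Prdm14 was lower in both untreated mutant lines.

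Formative and primed pluripotency genes, which rise as cells leave the naive state, had no common direction. Of 10 genes 9 were tested, 2 rose and 2 fell with HDAC1–Y48E (median -0.28), and 2 rose and 1 fell with HDAC1–E63R. Over all genes 16.2% rose and 14.7% fell with HDAC1–Y48E, and 7.49% rose and 6.82% fell with HDAC1–E63R. Otx2, which drives the exit from the naive state, was at -0.28 (adjusted p = 0.441) with HDAC1–Y48E and rose by 2.47 (adjusted p = 2.82e-05) with HDAC1–E63R, from 1.25 to 7.04 CPM, against 47.1 CPM in untreated HDAC1-WT cells. Grhl2, an epithelial factor, was the 1 DEG with HDAC1–Y48E, at 1.37 (SE 0.16, adjusted p = 4.30e-07). Among 15 paralogs of the members 13 were tested, and 4 fell and 2 rose with HDAC1–Y48E, against 14.7% and 16.2% of all genes. Prdm16 fell by 2.19 (SE 0.28, adjusted p = 1.88e-06), Sox15 by 1.94 (SE 0.29, adjusted p = 1.50e-05) and Prdm1 by 1.9 (SE 0.20, adjusted p = 9.78e-08), while Tfcp2, the paralog of Tfcp2l1, rose by 1.36 (SE 0.15, adjusted p = 1.99e-07).

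**Figure D4:**
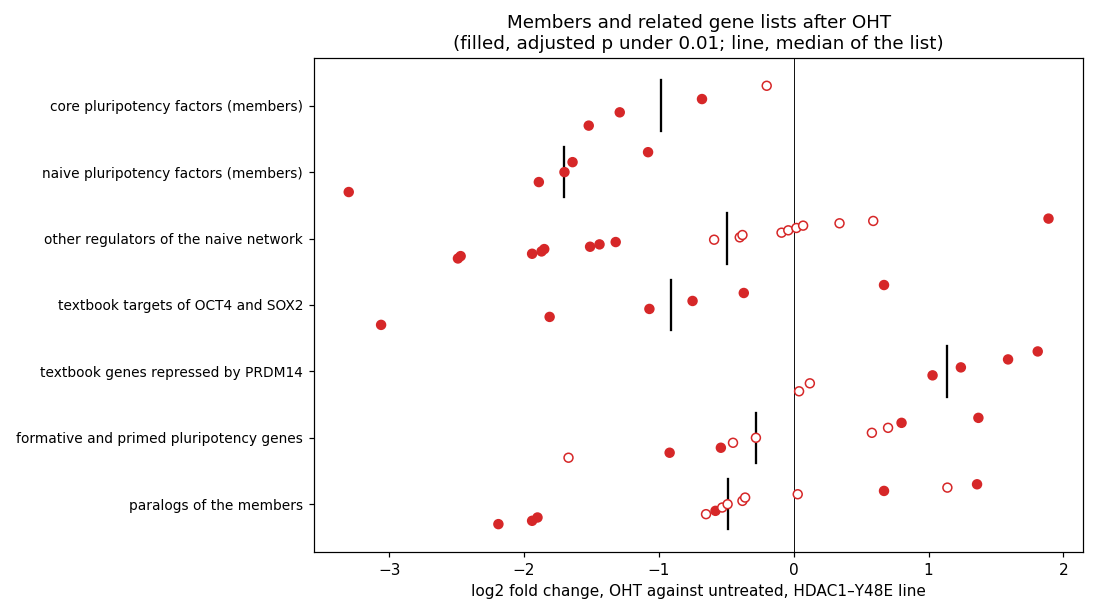
Log2 fold change after OHT in the HDAC1–Y48E line of each tested gene in the member lists and in the related lists, filled where the adjusted p was under 0.01, with the median of each list as a vertical line. The medians are -0.99 for the core members, -1.70 for the naive members and 1.14 for genes repressed by PRDM14.

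Markers of other cell types also moved, and their part in the results was not tested. Counts of markers stand against 16.2% of all genes that rose and 14.7% that fell after OHT with HDAC1–Y48E. With HDAC1–E63R these shares were 7.49% and 6.82%, or 8.85% and 9.63% without untreated replicate 3. The summed level of 7 markers of 2-cell-like cells, a rare state within ESC cultures, was between 2.17 and 3.99 CPM in untreated HDAC1-WT cells and between 295 and 309 CPM in OHT-treated HDAC1–Y48E cells, and 3 of 6 tested markers rose after OHT in that line, with Zscan4d at 2.28 (SE 0.22, adjusted p = 3.21e-08). The sum was already between 85.5 and 98.0 CPM in untreated HDAC1–Y48E cells. In OHT-treated HDAC1–Y48E cells the sum of 8 trophoblast markers was between 50.3 and 52.5 CPM against 27.4 to 31.2 CPM without OHT, with Hand1 up by 3.27 (SE 0.29, adjusted p = 8.74e-09), 3 of 7 tested markers up, 0 passing as lower, and Tpbpa at 0 counts in both groups. Ascl2 went the other way without overlap, from a mean of 17.4 to 7.8 CPM, and narrowly missed the limit (-1.16, adjusted p = 0.0106). Primitive endoderm markers summed to between 285 and 308 CPM against 250 to 275 CPM (1 of 7 rose, Dab2, and 1 fell, Lama1). Fibroblast markers summed to between 81.5 and 94.1 CPM against 23.0 to 27.1 CPM (2 of 3 rose, Col1a1 and Thy1), with Lum at 0 in both groups. Mesendoderm and neural markers summed to between 66.4 and 73.4 CPM against 51.6 to 56.4 CPM, where 1 of 5 rose and 2 fell. Nes rose by 1.19 (adjusted p = 2.70e-07), from a mean of 26.6 to 60.6 CPM. Pax6 fell by 2.44 (adjusted p = 8.24e-04) and Sox1 by 1.31 (adjusted p = 2.02e-04). In the HDAC1–E63R line the 2-cell-like sum went from between 33.7 and 50.1 CPM to between 158 and 171 CPM. Of its 6 tested markers 4 rose, or 5 without untreated replicate 3. The trophoblast sum there went from between 20.9 and 42.1 CPM to between 51.0 and 64.3 CPM. Of the 7 tested trophoblast markers 3 rose and 1, Ascl2, fell (-1.31, adjusted p = 0.00886). Without untreated replicate 3 Ascl2 did not pass (-0.74, adjusted p = 0.0666). Fibroblast markers in that line went from between 12.9 and 18.8 CPM to between 48.5 and 56.2 CPM (2 of 3 rose). Primitive endoderm markers went from between 76.2 and 153 CPM to between 216 and 227 CPM (2 of 7 rose, or 1 of 7 without untreated replicate 3). Mesendoderm and neural markers went from between 49.0 and 52.0 CPM to between 42.6 and 51.1 CPM (1 of 5 fell). In the HDAC1-WT line the fibroblast sum also went up, from between 23.4 and 25.2 CPM to between 35.9 and 41.8 CPM. There 0 of 3 fibroblast markers passed (Thy1 at 0.88, adjusted p = 0.0141). The 2-cell-like sum in that line went from between 2.17 and 3.99 CPM to between 0.481 and 1.85 CPM, and the other sums overlapped.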

How the data were processed

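Total RNA of 18 libraries in 6 groups had been sequenced as paired reads. Per the labels' processing notes the authors used HISAT2 2.1.0, SAMtools 1.9 and HTSeq with mm10, and they deposited raw counts per gene symbol. The strand setting and annotation are not given in the sources used here. Each library held 9019615 to 11454638 counts on genes, and the 5 entries that name no gene, 59.4% to 61.2% of each library, were left out. Groups came from the sample titles. The 9 members and the gene lists were chosen with earlier results of these data known, and Pou5f1, Nanog, Esrrb, Prdm14 and the Dnmt3 genes are named by the study from these libraries, so they are not independent evidence of a direction.

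Genes were filtered with filterByExpr by group, which left 18791, and scaled with TMM factors. One quasi-likelihood model (edgeR 4.0.16, R 4.3.3, limma 3.58.1) held a mean per group over all 18 libraries, so a library that stands apart widens the errors of all groups. Differences of OHT effects were contrasts in this model. Two-sided p-values received a Benjamini-Hochberg adjustment across all tested genes in each of 12 comparisons. The procedure was tested on simulated counts. Each standard error is the log2 fold change over the square root of its F.

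Named beside the members were up to 4 DEGs per list with the largest change after OHT with HDAC1–Y48E, no overlap between groups and a mean of at least 1 CPM, the 3 genes of most similar pattern, and the nearest tested neighbours; other genes named were chosen after their values were seen, and 1 gene that the rule takes in is not reported here. GENCODE M21 (mm10) gave positions and exon lengths, and RefSeq (GRCm38.p6) the promoters. Alternatives were relative log expression factors, library totals alone, no filter, a replicate block, the libraries compared alone, the DESeq2 Wald test (1.42.0), calls at an adjusted p under 0.05, and leaving out single libraries in turn. Replicates of the same number did not deviate together (r between -0.02 and 0.04), and no pair of libraries agreed within sampling noise.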

Additional observations from a re-analysis of the deposited data

Results flagged for a closer look

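These results drew attention because the effect of OHT on a member differed between lines, by a test of that difference; the values are log2 differences of the OHT effects. Between HDAC1–Y48E and HDAC1-WT they were -1.46 for Pou5f1, -0.91 for Sox2, -1.28 for Nanog, -1.92 for Esrrb, -3.36 for Prdm14, -1.69 for Tfcp2l1, -1.65 for Nr5a2 and -1.49 for Tbx3, with adjusted p values from 3.10e-09 to 1.81e-04. Between HDAC1–Y48E and HDAC1–E63R they were -1.07 for Nanog, -1.24 for Esrrb, -2.39 for Prdm14, -1.46 for Tfcp2l1, -1.49 for Nr5a2 and -1.31 for Tbx3, with adjusted p values from 7.44e-06 to 0.00117. Between HDAC1–E63R and HDAC1-WT the value was -0.68 for Esrrb (adjusted p = 0.00833). All 3 libraries of each OHT-treated mutant group lay below the untreated ones of the same line for Pou5f1, Nanog, Esrrb and Prdm14. In the HDAC1–Y48E line this held for 27.5% of all genes, and for HDAC1–E63R the share was not computed. Untreated HDAC1–E63R replicate 3 enters the comparisons with that line; without it the values against HDAC1–Y48E were -1.21, -1.11, -2.37, -1.17, -1.28 and -1.15 in the same order of members, and that for Esrrb against HDAC1-WT was -0.81. Groups of 3 libraries are too small for a test of single outlying values.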

How the results depend on the processing

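Of 1539 recomputed log2 fold changes of the members, 1458 kept their side of the threshold, 42 lost a call, 39 gained one and 0 were reversed. The fall of 8 of 9 members after OHT with HDAC1–Y48E held under each alternative, and so did the 8 differences from HDAC1-WT, for which a fit of the compared libraries alone was not run. With library totals alone the median of all genes after OHT moved to 0.228 (HDAC1–E63R) and 0.252 (HDAC1–Y48E).

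In a fit of the compared libraries alone, 1 member (Tbx3) rose after OHT with HDAC1-WT, 0 fell with HDAC1–E63R, and 3 were lower in untreated HDAC1–E63R than HDAC1-WT cells. The shares of all genes in these fits were not recorded. For the difference of OHT effects between HDAC1–E63R and HDAC1-WT (1 member), 0 passed with library totals alone, 3 without a filter, 3 with DESeq2 and 3 at an adjusted p under 0.05. With a replicate block, which the libraries' numbers do not justify as a pairing, 0 passed there; the block otherwise changed only the call for Esrrb after OHT with HDAC1–E63R. For members higher in untreated HDAC1–Y48E than HDAC1–E63R cells (0), 1 passed with library totals alone, 2 without a filter, 3 with DESeq2 and 3 at an adjusted p under 0.05.

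With single libraries left out, the members lower after OHT numbered 2 to 5 in the HDAC1–E63R line and 8 to 8 in the HDAC1–Y48E line. The differences of OHT effects passed for 0 to 4 (HDAC1–E63R and HDAC1-WT), 8 to 8 (HDAC1–Y48E and HDAC1-WT) and 6 to 8 (HDAC1–Y48E and HDAC1–E63R). Untreated members were lower in 4 to 7 cases (HDAC1–E63R) and 4 to 5 (HDAC1–Y48E) than with HDAC1-WT, and 0 to 3 were higher with HDAC1–Y48E than HDAC1–E63R; after OHT the numbers were 8 to 8, 8 to 9 and 8 to 8. The highest values of 5, 4, 8, 7 and 3 came without untreated HDAC1–E63R replicate 3. The cause of the calls that changed was not tested. Prdm14 after OHT with HDAC1–Y48E rests on 27 to 43 counts per library, which limits its precision.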
